A study of Mus musculus with 4 samples.

Results

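The genes described here encode 9 subunits of the Polycomb complexes, Ezh1, Ezh2, Eed, Suz12, Jarid2, Cbx2, Cbx7, Cbx8 and Bmi1, chosen by name and matched by their Ensembl identifiers. They were chosen with earlier results of these data known. All 9 were among the 37620 genes of the raw count table and among the 15462 genes that the authors kept after a filter on low counts. RNA was sequenced from R1 mouse embryonic stem cells (ESCs) of strain 129/Sv, either wild type (WT) or lacking Cripto (Cripto KO), the membrane co-receptor of Nodal encoded by Tdgf1. Each genotype was grown in serum/LIF, the culture of naive ESCs, or for 6 days in N2B27 with bFGF and 20 ng/ml Activin A (F/A), in which ESCs pass to epiblast stem cells (EpiSCs). There was 1 library for each of the 4 conditions, so no spread between replicates could be measured and no test across cultures was run. The Cripto KO libraries come from cells of a knockout ESC line, and nothing names which KO clone was sequenced, so clone and genotype cannot be told apart.

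Polycomb proteins keep developmental genes silent through 2 kinds of complex. Polycomb repressive complex 2 (PRC2) methylates lysine 27 of histone H3, with Ezh2 or Ezh1 as the enzyme and Eed and Suz12 as the parts without which the enzyme is inactive, while Jarid2 brings the complex to chromatin and tunes its activity. Polycomb repressive complex 1 (PRC1) ubiquitinates histone H2A. In its canonical form a chromobox protein such as Cbx2, Cbx7 or Cbx8 reads the methylated lysine 27, and Bmi1 (Pcgf4) or its paralogue Pcgf2 partners the RING enzyme. In ESCs, Cbx7 is known as the main chromobox protein, and Cbx2 and Cbx8 come up as cells differentiate.

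The libraries held 15230856 to 17315442 counts. Tdgf1 (ENSMUSG00000032494), the targeted gene, had 18714 counts in WT serum/LIF and 945 in Cripto KO serum/LIF, and 1572 in WT F/A and 86 in Cripto KO F/A. In the Cripto KO F/A library, 3 of the 18700 genes with a count had an odd count (0.016%), against 53.1% to 53.6% in the other libraries. Its counts were therefore halved for every counting interval below. Each interval is a 95% Clopper-Pearson interval of the ratio of raw counts, scaled by library totals, and covers counting error only. Fold changes come from the authors' quantile-normalized values, so a fold change can lie at the edge of its interval or just past it. A gene is called changed where the fold is at least 2.

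The culture labels were set against marker genes by their summed counts scaled to the library total (cpm). In the order WT serum/LIF, WT F/A, Cripto KO serum/LIF and Cripto KO F/A, the 6 naive ESC markers found in the raw table summed to 3222, 28.5, 2863 and 45.5 cpm. The 7 primed epiblast markers summed to 169, 1227, 185 and 638 cpm, with none at or under the detection limit in either F/A library. Much of the F/A sums was T, at 574 cpm in WT and 356 in Cripto KO, and Fgf5 stood at 145 and 25 cpm. Otx2 rose from 75.5 to 156 cpm in WT but fell from 62.9 to 43.1 cpm in Cripto KO. The other markers of this list were higher in F/A in both genotypes. The 3 general pluripotency genes Pou5f1, Sox2 and Nanog, which EpiSCs keep, summed to 2948, 176, 2579 and 133 cpm, so both F/A cultures held them at a small part of the ESC level. Trophoblast markers (5 found) summed to 5.26, 164, 2.03 and 196 cpm, neural markers (3 found) to 88.2, 322, 98.7 and 302 cpm, and fibroblast markers (7 found) to 116, 72.5, 123 and 190 cpm. Between the F/A libraries, WT and then Cripto KO, the trophoblast genes moved apart, with Cdx2 at 6.83 and 42.8 cpm and Hand1 at 12.9 and 110 cpm but Eomes, also a gene of the primitive streak, at 129 and 26.8 cpm. The neural sum in F/A was mostly Nes, at 293 and 267 cpm, while Tubb3 went from 68.7 to 14.5 cpm in WT and from 75.8 to 17.9 cpm in Cripto KO. The part of these markers in the results below was not tested. In bulk RNA, fewer cells of a type and less RNA per cell cannot be told apart.

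The core of PRC2 lost transcripts unevenly in F/A. On the normalized values, in both genotypes Eed fell by more than 5-fold while Ezh2, the enzyme it activates, was under 1.5-fold lower. Scaled by library totals, these bounds were narrowly missed by Eed in WT (log2 change −2.28) and by Ezh2 in Cripto KO (−0.59). Suz12 and Jarid2 were lower in both genotypes, and past 2-fold in Cripto KO alone. On the PRC1 side the chromobox genes moved apart, with Cbx7 called lower in both genotypes and Cbx2 and Cbx8 called higher in Cripto KO. Bmi1 was called higher in both. In WT that margin was lost when corrected for the longest transcript but not for the median transcript length, as given with its values. The plot of normalized counts by culture shows these opposite slopes gene by gene.

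**Figure D1:**
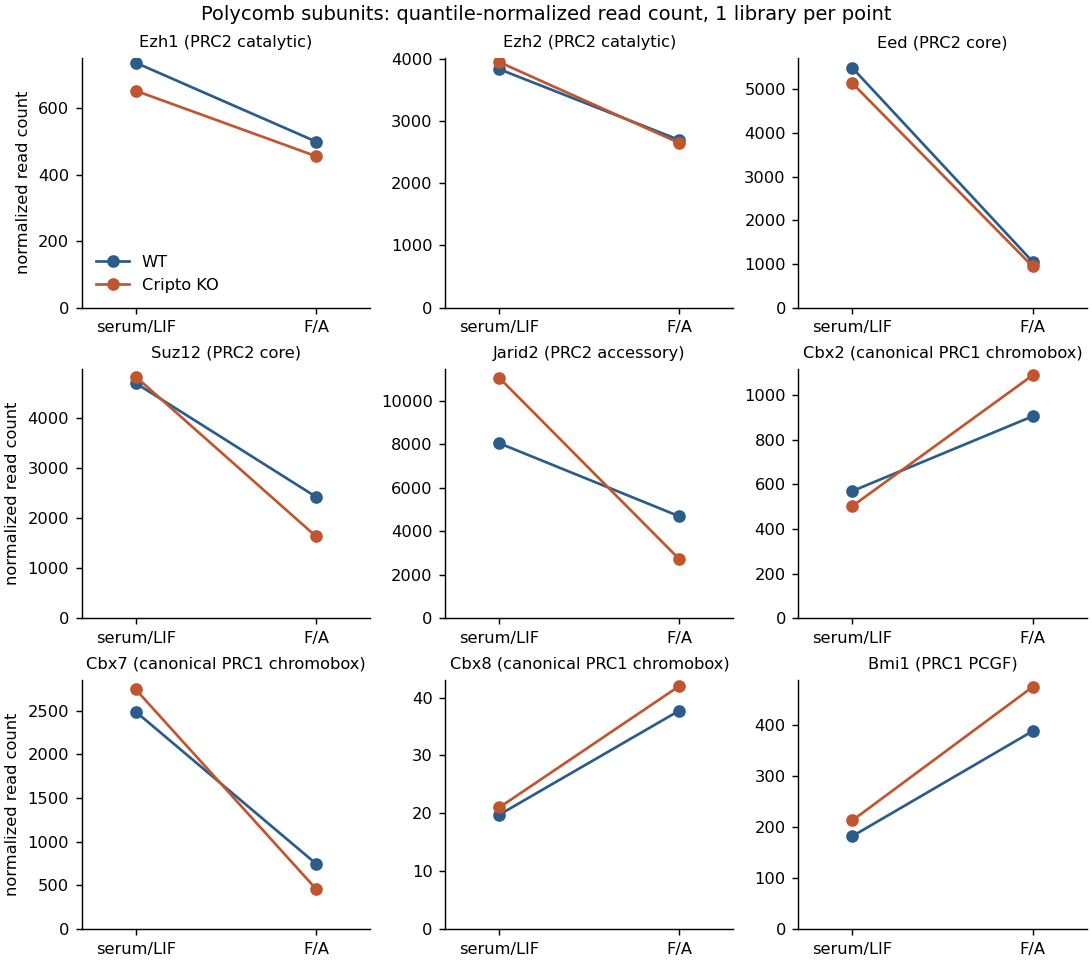
Normalized read count (vertical axis, starting at 0) of each subunit in serum/LIF and F/A, with 1 library per point and no error bars; blue is WT and orange is Cripto KO. Eed and Cbx7 drop steeply in both genotypes, the lines of the genotypes cross for Ezh2, Suz12, Jarid2, Cbx2 and Cbx7, and Cbx2, Cbx8 and Bmi1 slope upwards.

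Eed, the subunit that binds methylated lysine 27 and stimulates the enzyme, lies at chr7:97103166-97129493 on the minus strand (NCBIM37, as all gene positions below). Its normalized count was 5488.25 in WT serum/LIF, 1052 in WT F/A, 5136.5 in Cripto KO serum/LIF and 943.5 in Cripto KO F/A. Both serum/LIF libraries were high and both F/A libraries low, with little between the genotypes. The fold decrease was 5.22 in WT (ratio 0.192, interval 0.192 to 0.22) and 5.44 in Cripto KO (ratio 0.184, interval 0.169 to 0.204). The log2 change in Cripto KO minus that in WT was −0.06, and its counting interval of −0.31 to 0.02 on raw counts spanned 0.

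Ezh2 (chr6:47480273-47545340, minus strand) encodes the histone methyltransferase that dominates in dividing cells. It had a normalized count of 3843 in WT serum/LIF, 2700.5 in WT F/A, 3957 in Cripto KO serum/LIF and 2652.625 in Cripto KO F/A. The F/A libraries were the lower pair, 1.42-fold in WT (interval of the ratio 0.707 to 0.78) and 1.49-fold in Cripto KO (0.623 to 0.708), and the change was not called in either. Ezh1 (chr11:101052429-101087777, minus strand), the paralogue with weaker enzyme activity that is known from resting cells, stood at 737.75 in WT serum/LIF, 500.25 in WT F/A, 653.25 in Cripto KO serum/LIF and 456.25 in Cripto KO F/A. Its log2 changes of −0.56 in WT and −0.52 in Cripto KO were close to those of Ezh2, −0.51 and −0.58.

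The proportion of the 2 enzymes moved little between cultures. Counts of Ezh2 over Ezh1, per median transcript length, were 2.83 in WT serum/LIF, 2.97 in WT F/A, 3.33 in Cripto KO serum/LIF and 2.96 in Cripto KO F/A. Per longest transcript the same ratio was 8.35, 8.74, 9.83 and 8.72, so its level depends on the length used. From serum/LIF to F/A that ratio changed 1.05-fold in WT (95% interval 0.925 to 1.19) and 0.887-fold in Cripto KO (0.754 to 1.04), where the length used as divisor cancels. Ezh2 over Eed, in contrast, became 3.62-fold larger in WT (3.33 to 3.93) and 3.57-fold larger in Cripto KO (3.19 to 4). Within PRC2, then, the F/A cultures held more Ezh2 transcript for each Eed transcript than the ESCs did, by nearly the same factor in both genotypes.

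Suz12 (chr11:79806608-79847625, plus strand) encodes the scaffold on which PRC2 assembles. Its normalized count was 4684 in WT serum/LIF, 2420.375 in WT F/A, 4812 in Cripto KO serum/LIF and 1633.875 in Cripto KO F/A. The serum/LIF libraries nearly coincided and the Cripto KO F/A library was lowest. The decrease was 1.94-fold in WT, just short of 2-fold (ratio 0.517, interval 0.517 to 0.571), and 2.95-fold in Cripto KO (ratio 0.34, interval 0.315 to 0.367). Over 12515 bases Suz12 overlaps Gm16706, a long non-coding RNA gene on the opposite strand with 356, 239, 409 and 134 raw counts in the order WT serum/LIF, WT F/A, Cripto KO serum/LIF and Cripto KO F/A. Ezh2 overlaps Gm17629 in the same way, with 412, 229, 346 and 246 counts. Whether the counting used strand is not given in the sources used here, so these reads cannot be assigned with certainty.

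Jarid2 (chr13:44824843-45017012, plus strand), an accessory subunit that recruits PRC2 and carries no demethylase activity despite its Jumonji domain, was the subunit in which the genotypes parted most. Its normalized count was 8044 in WT serum/LIF, 4684 in WT F/A, 11051 in Cripto KO serum/LIF and 2710 in Cripto KO F/A. Cripto KO was thus the highest library in serum/LIF and the lowest in F/A. Jarid2 was 1.72-fold lower in F/A in WT (ratio 0.582, interval 0.569 to 0.612) and 4.08-fold lower in Cripto KO (ratio 0.245, interval 0.224 to 0.252). The log2 change in Cripto KO minus that in WT was −1.25 (counting interval on raw counts −1.41 to −1.21), the widest gap among the 9 subunits. Less the running median of genes with a like longest transcript, as described below, the WT log2 change of −0.78 became −1.42, past 2-fold. With the median transcript length it became −0.46, so the corrections moved it in opposite directions.

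Cbx7 (chr15:79746237-79801549, minus strand), the chromobox subunit typical of ESC PRC1, had a normalized count of 2489.5 in WT serum/LIF, 749 in WT F/A, 2744.75 in Cripto KO serum/LIF and 460.25 in Cripto KO F/A. Across the 4 libraries it had the widest range of the 9 genes, 2.58 on the log2 scale, ahead of Eed with 2.54. It fell 3.32-fold in WT (ratio 0.301, interval 0.297 to 0.351) and 5.96-fold in Cripto KO (ratio 0.168, interval 0.151 to 0.198). The difference between these log2 changes was −0.84, with a counting interval on raw counts of −1.13 to −0.67.

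Cbx2 (chr11:118884276-118892584, plus strand) encodes a chromobox subunit that compacts chromatin. Its normalized count moved the other way, from 569.75 in WT serum/LIF to 904.5 in WT F/A and from 502.75 in Cripto KO serum/LIF to 1088 in Cripto KO F/A. It was 1.59-fold higher in F/A in WT (interval 1.52 to 1.87), which was not called, and 2.16-fold higher in Cripto KO (interval 2.03 to 2.6). Its log2 change was larger in Cripto KO by 0.45 (counting interval 0.22 to 0.68). Cbx8, whose gene lies next to Cbx2 at chr11:118897619-118902283 on the minus strand and whose product also joins differentiated-cell PRC1, was scarce. It had 24 raw counts in WT serum/LIF, 36 in WT F/A, 21 in Cripto KO serum/LIF and 38 in Cripto KO F/A. At that depth its 1.91-fold higher value in WT F/A (interval 0.99 to 2.99) and its 2-fold higher value in Cripto KO F/A (interval 0.951 to 3.65), which meets the fold threshold exactly, could not be told from no change.

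Bmi1 (chr2:18598645-18608256, plus strand), the PRC1 partner known for repressing the Ink4a/Arf locus in stem cells, had a normalized count of 181.75 in WT serum/LIF, 387.25 in WT F/A, 212.625 in Cripto KO serum/LIF and 473.75 in Cripto KO F/A. Both F/A libraries lay above both serum/LIF libraries. It was 2.13-fold higher in WT (interval 1.81 to 2.58) and 2.23-fold higher in Cripto KO (interval 2.05 to 3), and the log2 changes differed by 0.06 (counting interval on raw counts −0.17 to 0.57). In WT the lower end of the interval is under 2-fold, and less the running median of genes with a like longest transcript the log2 change came to 0.998, just short of the call. With the median transcript length it came to 1.64 and was called.

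**Figure D2:**
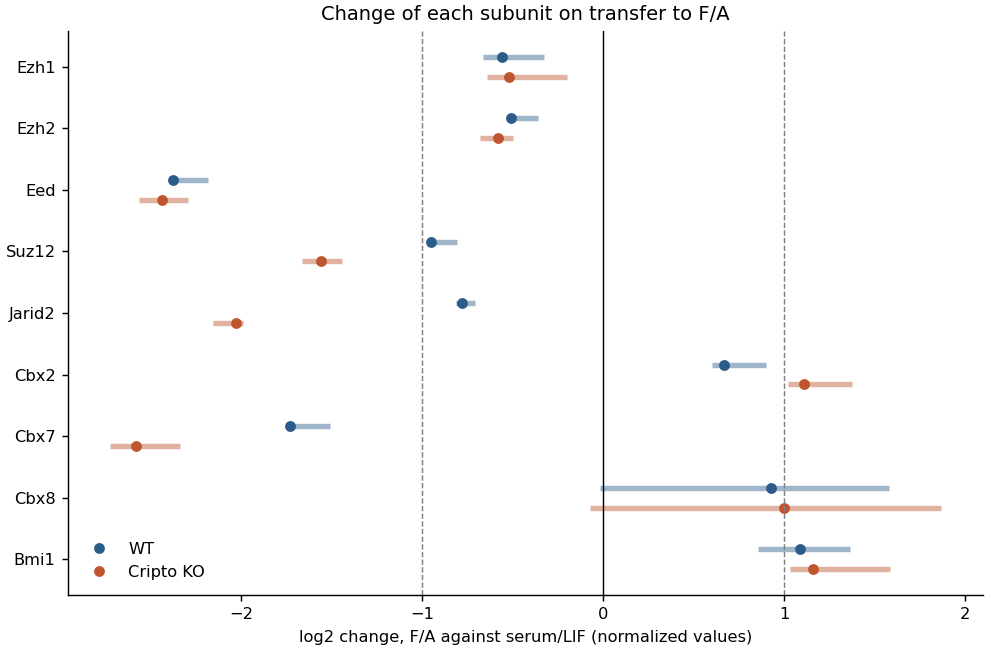
Log2 change of each subunit, F/A over serum/LIF (horizontal axis), blue for WT and orange for Cripto KO. Points are normalized values, bars are 95% counting intervals from raw counts, and dashed lines mark 2-fold. Eed and Bmi1 lie close together in the 2 genotypes, Suz12, Jarid2 and Cbx7 lie further left in Cripto KO, and both intervals of Cbx8 reach 0.

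Counted together, 1 of the 9 subunits was called higher and 2 were called lower after the WT transition to F/A, where 22.1% of all genes kept were called higher and 20.9% lower. In Cripto KO, 3 of 9 were called higher and 4 lower, against 19.9% and 19.4% of all genes. The share called in WT was no larger than among all genes, and 7 of 9 in Cripto KO was above it. The 7 include Cbx8, whose interval of 0.951 to 3.65 included 1. The median log2 change of the 9 was −0.56 in WT and −0.58 in Cripto KO, where the median of all genes was −0.07 in both. At a lower threshold of 1.5-fold in either direction, 7 of 9 were called in WT (62.8% of all genes) and 7 of 9 in Cripto KO (57.2%). With 1 library a condition and 9 genes chosen with earlier results of these data known, these shares describe the libraries and were not tested.

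Between genotypes at a fixed culture, none of the 9 subunits reached 2-fold. In F/A, where 4.59% of all genes were called higher and 5.69% lower in Cripto KO than in WT, Jarid2 was 1.73-fold lower (interval of the ratio 0.528 to 0.598), Cbx7 1.63-fold lower (0.529 to 0.714) and Suz12 1.48-fold lower (0.603 to 0.709). Cbx2 was 1.2-fold higher (1.06 to 1.32) and Bmi1 1.22-fold higher (1.06 to 1.48), while the interval of Ezh1 (0.795 to 1.09) included 1. Fewer genes were called in serum/LIF, 2.86% higher and 2.75% lower. There Jarid2 was 1.37-fold higher in Cripto KO (1.36 to 1.44) and Cbx7 1.1-fold higher (1.09 to 1.21), while Suz12 and Ezh2 differed by 1.03-fold. For Eed the normalized ratio of 0.936 fell just outside its own interval of 0.939 to 1.01, a difference between the 2 scalings. Less the running median over the longest transcript, the log2 difference of Jarid2 in F/A went from −0.79 to −0.38, and over the median transcript length to −0.91. At 1.5-fold, 2 of 9 were called in F/A, Jarid2 and Cbx7, against 26.2% of all genes. These comparisons reuse the libraries of the transitions and are not independent of them.

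The change in Cripto KO minus the change in WT was at least 2-fold for 1 subunit, Jarid2, on the lower side, and for none on the higher side. Among all genes, 9.38% differed at least 2-fold on the lower side and 7.69% on the higher side. At 1.5-fold, Suz12 and Cbx7 joined Jarid2, 3 of 9 against 37.4% of all genes. This difference followed transcript length across the genome. Over 9653 genes with a mean normalized value of at least 200, it fell with the length of the longest annotated transcript (Spearman rho −0.52 across genes, which share the 4 libraries), with medians of 0.46 and −0.48 in the eighths of genes with the shortest and longest transcripts. Jarid2 has a longest transcript of 8353 nucleotides, and the running median of the difference at that length was −0.47. Its own difference less that median was −0.78, which is under 2-fold. At the 4373 nucleotides of Suz12 the running median was −0.15, leaving −0.46, and at the 3388 nucleotides of Cbx7 it was 0.03, leaving −0.88. By this measure Cbx7 stood furthest from genes of its own length. With the median transcript length, which many partial transcripts shorten, the order was reversed, with −1.40 left for Jarid2 and −0.91 for Cbx7. How far length accounts for the value of Jarid2 was not tested.

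**Figure D3:**
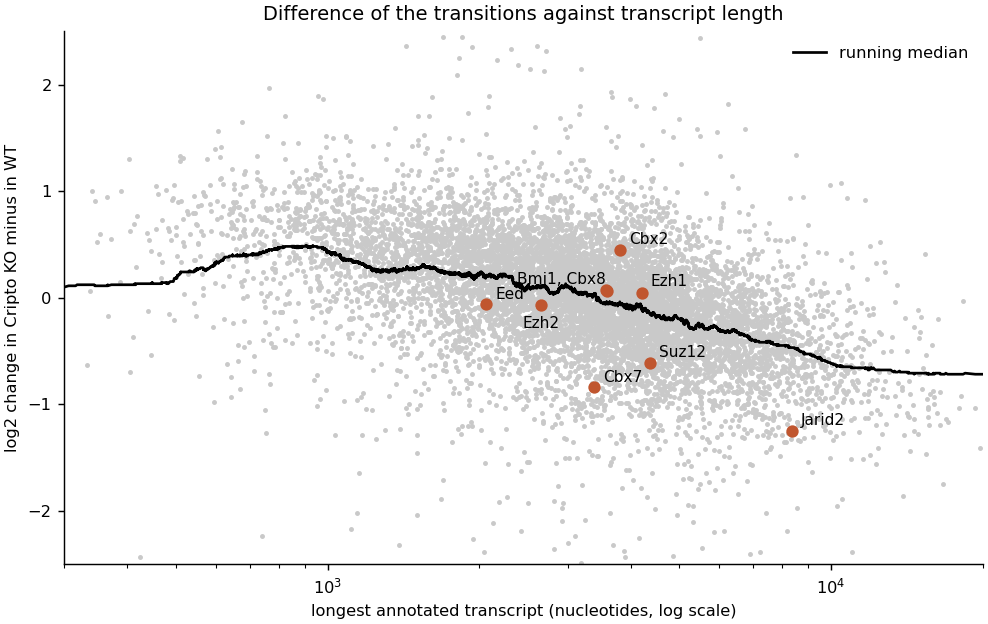
Log2 change in Cripto KO minus that in WT (vertical axis, drawn from −2.5 to 2.5) against the longest annotated transcript (log axis). Grey points are genes with a mean normalized value of at least 200, the black line is the running median over genes of neighbouring length, and orange points are the 9 subunits. The line falls from left to right, Jarid2 sits at −1.25 where the line is at −0.47, and Cbx7 sits at −0.84 where the line is near 0.

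The order of the libraries separated the subunits into 2 kinds. For the 6 genes with lower levels in F/A (Ezh1, Ezh2, Eed, Suz12, Jarid2 and Cbx7), the lowest library was Cripto KO F/A and the next WT F/A, and for Ezh1 these neighbours did not differ beyond counting error. For the other 3 (Cbx2, Cbx8 and Bmi1) Cripto KO F/A was highest and WT F/A next, and for Cbx8 that pair could not be told apart. In serum/LIF the genotypes did not differ beyond counting error for Ezh2, Eed, Cbx8 and Bmi1.

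Within families of paralogues the make-up shifted. Per length of the longest transcript, Cbx7 made up 64.2% of the counts of 4 Polycomb chromobox genes (Cbx2, Cbx6, Cbx7 and Cbx8) in WT serum/LIF, 37.5% in WT F/A, 67.7% in Cripto KO serum/LIF and 26.2% in Cripto KO F/A. Cbx2 took 13.2%, 40.3%, 10.5% and 54.1% in the same order, and Cbx8 stayed between 0.482% and 2.02%. With the median transcript length, Cbx7 took 56%, 39.4%, 58.6% and 31.5% and Cbx2 3.91%, 14.4%, 3.09% and 22.1%. Among these 4, Cbx7 therefore led in ESCs on either length, while the leading gene of the F/A cultures depended on the length used.

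When cultures are compared, the transcript length by which counts are divided cancels out of the ratio of Cbx7 to Cbx2. That ratio became 5.22-fold smaller from serum/LIF to F/A in WT (95% interval 4.58 to 5.96) and 13.3-fold smaller in Cripto KO (11.1 to 15.9). A trend of the log2 changes with length does not cancel. Its Spearman rho over genes was 0.25 with the median and 0.35 with the longest transcript in WT, and 0.08 and 0.10 in Cripto KO. In the PCGF family, Bmi1 took 3.17% of counts per longest transcript in WT serum/LIF, 7.16% in WT F/A, 3.49% in Cripto KO serum/LIF and 9.63% in Cripto KO F/A. With the median length these shares were 9.52%, 15%, 9.96% and 20.1%. Pcgf2 (Mel18), which fills the same place in canonical PRC1, lost ground to it, and the ratio of Pcgf2 to Bmi1 became 2.61-fold smaller in WT (2.16 to 3.15) and 3.34-fold smaller in Cripto KO (2.7 to 4.12).

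**Figure D4:**
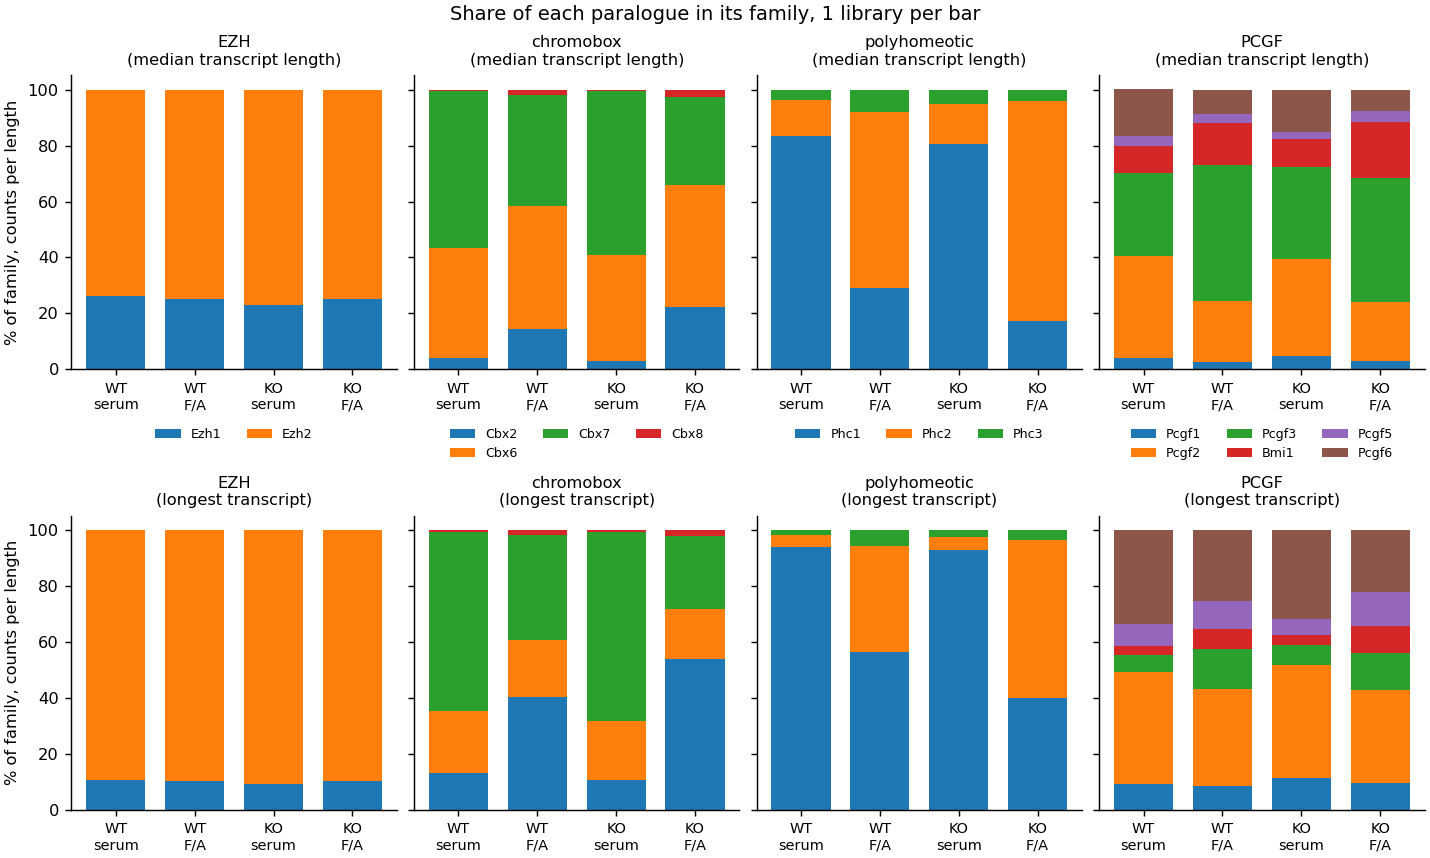
Share of each paralogue in the counts per transcript length of its family (%, bars stacked to 100), with 1 library per bar and serum standing for serum/LIF. The upper row uses the median transcript length and the lower row the longest. The Cbx7 share shrinks and the Cbx2 share grows in both F/A libraries, the Phc1 share shrinks against Phc2, and the Ezh1 to Ezh2 split barely moves.

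The 35 other Polycomb genes examined all passed the authors' filter. In WT, 9 were called higher and 7 lower in F/A (25.7% and 20%, against the 22.1% and 20.9% of all genes), and in Cripto KO 9 higher and 8 lower (25.7% and 22.9%, against 19.9% and 19.4%). Counting the 9 subunits with them, PRC2 had 13 genes, of which none was called higher and 5 were called lower in WT (median log2 change −0.78), and 1 was called higher and 7 lower in Cripto KO (median −1.13). The 5 and the 7 both include Ezhip, which went from 33 to 0 raw counts in WT and from 4 to 0 in Cripto KO. In Cripto KO its interval of 0 to 3.13 included 1. The genes listed under variant PRC1, which works without chromobox proteins, leaned the other way, with 5 of 8 called higher and 1 lower in WT, and 4 higher and 1 lower in Cripto KO. These 8 leave out the PCGF genes. Of those, Pcgf1, Pcgf5 and Pcgf6 were called in neither genotype and Pcgf3 was called higher in WT alone. Canonical PRC1 was split, with 1 of 9 higher and 3 lower in WT, and 4 higher and 3 lower in Cripto KO.

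Among the other PRC2 genes, the Polycomb-like protein Mtf2, which like Jarid2 brings PRC2 to CpG islands, went from 5791 to 1825 raw counts in WT and from 6049 to 1444 in Cripto KO (log2 changes −1.57 and −2.03). Its relative Phf19 went from 402 to 89 and from 496 to 94 (−2.06 and −2.39), and Epop, an elongin-binding subunit of ESC PRC2, from 2925 to 845 and from 2790 to 1250 (−1.70 and −1.13). Rbbp7, a histone chaperone shared with other complexes, was the PRC2 gene called higher, in Cripto KO, with log2 changes of 0.79 in WT and 1.06 in Cripto KO. Rbbp4, listed with Rbbp7 under the PRC2 core, was called in neither genotype (−0.40 and −0.14). Of the accessory genes, Aebp2 (−0.51 and −0.69) and Phf1 (−0.52 and −0.69) were called in neither genotype.

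In canonical PRC1 the balance of the polyhomeotic genes moved from Phc1 towards Phc2. Phc1 had 13406 raw counts in WT serum/LIF, 2965 in WT F/A, 11040 in Cripto KO serum/LIF and 2172 in Cripto KO F/A, and Phc2 had 575, 1841, 546 and 2838. Their ratio became 14.5-fold smaller in WT (interval 13.1 to 16) and 26.4-fold smaller in Cripto KO (23.5 to 29.7). In WT F/A, Phc1 held 56.4% of the family per longest transcript against 38% for Phc2, but 28.9% against 63.2% with the median length. Phc3 was called in neither genotype (0.52 in WT and −0.62 in Cripto KO). Cbx6 was called lower in both genotypes, the log2 change being −1.07 for WT and −1.50 for Cripto KO.

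In variant PRC1, Yaf2 (1.90 in WT and 2.15 in Cripto KO), Bcorl1 (2.30 and 2.46), Auts2 (2.13 and 1.77) and E2f6 (1.11 and 1.55) were called higher in both genotypes by these log2 changes. Bcor (1.16 and 0.72) passed 2-fold in WT alone, and L3mbtl2 was called lower in both (−1.11 and −1.37). Pcgf3, counted with the PCGF and RING1 genes, also passed 2-fold in WT alone (1.05 and 0.66). Of the genes that oppose Polycomb, the lysine 27 demethylase Kdm6b went from 802 to 3744 raw counts in WT and from 769 to 3362 in Cripto KO, log2 changes of 2.33 and 2.15. Asxl3, of the H2A deubiquitinase, had log2 changes of 3.10 and 2.68. The rest of this kind were not called higher. Kdm6a (−0.04 in WT and −0.73 in Cripto KO), Bap1 (0.24 and 0.62) and Asxl1 (0.23 and −0.02) were called in neither genotype. Asxl2 was called lower in Cripto KO alone (−0.06 and −1.54).

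Between genotypes, Asxl2, another deubiquitinase subunit, was the one gene of the 35 called in F/A. It had 1458 raw counts in WT serum/LIF, 1321 in WT F/A, 1863 in Cripto KO serum/LIF and 634 in Cripto KO F/A, a log2 change of −1.09 between the F/A libraries. Less the running median over the median or the longest transcript length, that value was −0.89 or −0.54 and was no longer called. In serum/LIF, 2 of the 35 were called lower in Cripto KO. Scml2, a sex comb protein of PRC1, had 524 counts in WT and 109 in Cripto KO (log2 change −2.13). Ezhip, an inhibitor of PRC2 known from germ cells, had 33 and 4 counts, and it was named after its values were seen.

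**Figure D5:**
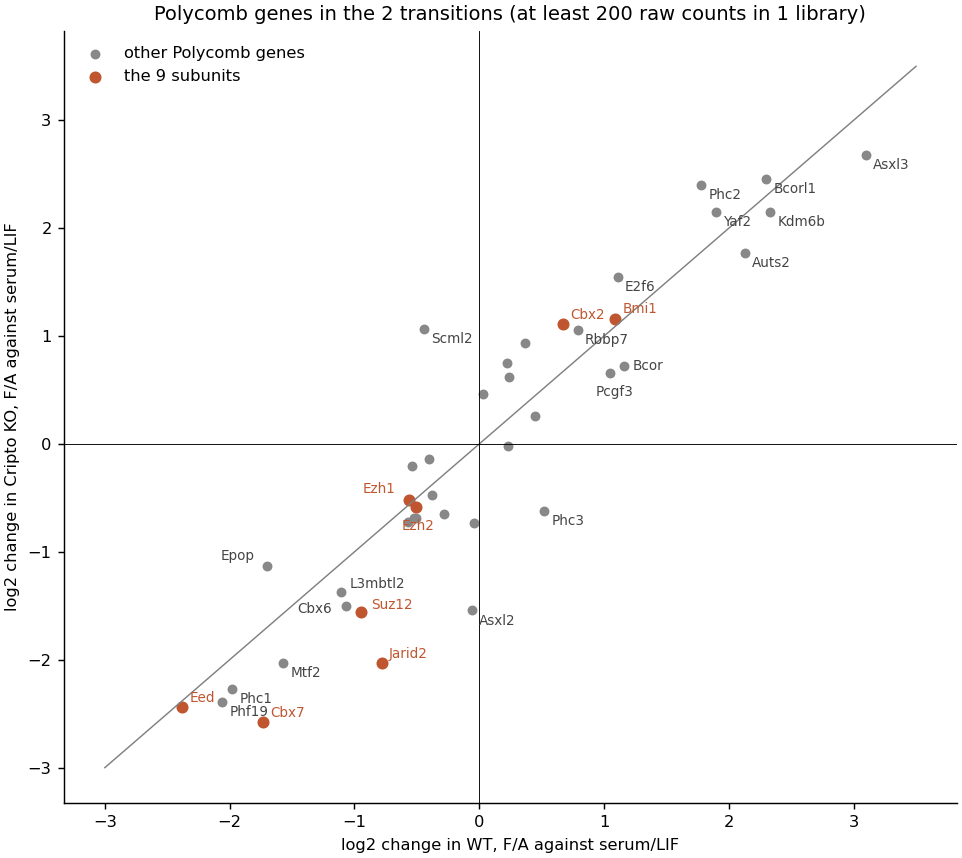
Log2 change, F/A over serum/LIF, in WT (horizontal axis) and Cripto KO (vertical axis) for the Polycomb genes with at least 200 raw counts in at least 1 library, the 9 subunits in orange and others in grey; Cbx8 is below that count and not drawn. The diagonal marks equal change. Most genes lie near it, Jarid2, Cbx7 and Suz12 lie below it, and Scml2, Asxl2, Jarid2 and Phc3 lie furthest from it.

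A list of 34 developmental regulators known as Polycomb targets in ESCs was read in the same libraries. Of these 33 were found among the raw counts, and 22 of them were above the detection limit in WT serum/LIF, 24 in WT F/A, 21 in Cripto KO serum/LIF and 27 in Cripto KO F/A. At least 50 counts were reached by 5, 19, 3 and 20 of them in the same order, and in Cripto KO F/A, where counts are nearly all even, 18 reached 100. Of all genes of the raw table, 33.5%, 32.6%, 32.6% and 32.4% had at least 50 counts. After the authors' filter 23 remained, and 21 of them were called higher and 1 lower in each transition, a count that the filter favours because a gene could pass it through F/A alone. Of all genes kept, 22.1% were called higher and 20.9% lower in WT, and 19.9% and 19.4% in Cripto KO. Between genotypes, 8 of the 23 were called higher and 3 lower in F/A (4.59% and 5.69% of all genes), and 3 higher and 5 lower in serum/LIF (2.86% and 2.75%). Of those higher in F/A, Hoxa9, Tbx5 and Lhx2 exceeded 1 cpm in Cripto KO F/A alone, so the filter favoured these calls too. The F/A interval of Lhx2 (0.92 to 6) included 1. With a mean of at least 50 raw counts, 19 genes remained in F/A, 5 called higher and 3 lower. The 3 higher in serum/LIF, Foxa2, Hand1 and Nkx2-5, had at most 11 raw counts in either library and intervals that included 1. Of the 5 lower, T and Tbx5 also had intervals that included 1. Foxa2, Nkx2-5, Tbx5, Hoxa9 and Lhx2 were named after their values were seen. More of these genes were thus well counted in the F/A cultures, whose Eed and Cbx7 levels were low, and no link between the observations was tested. T (Brachyury), the mesoderm factor, had 13 raw counts in WT serum/LIF, 8748 in WT F/A, 4 in Cripto KO serum/LIF and 5598 in Cripto KO F/A. Bmp2 had 5, 1872, 4 and 1270 counts, and the trophoblast and posterior gene Cdx2 had 2, 104, 1 and 674. Tbx3, which naive ESCs themselves express, went the other way with 8806, 290, 4622 and 536.

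The genes whose profile over the 4 libraries was nearest to that of Cbx7, among 9659 genes, were Hells, Kat2b and Kdm4c, at Euclidean distances of 0.111, 0.115 and 0.16 between centred log2 normalized values. Hells, a chromatin remodeller of DNA methylation, had 9446 raw counts in WT serum/LIF, 2377 in WT F/A, 9174 in Cripto KO serum/LIF and 1566 in Cripto KO F/A. Nearest to Eed were Dedd2, Btbd11 and Rasgrp2, at distances of 0.0703, 0.0886 and 0.15. With 4 libraries many genes can share a profile, and these distances describe the libraries.

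Promoter sequences were read to show what the start regions of the subunits hold. RefSeq windows of 300 bases (250 before and 50 after the start, build GRCm38.p6, another build than the counts) were found for 8 of the 9 genes, with separate starts for Jarid2. They held 17 CG dinucleotides for Eed and 41 for Suz12, and between these values for the rest, where the median of all 32851 promoters was 7. The 250 bases before the start are printed for Eed and Cbx7, the subunits with the widest ranges, and for Bmi1, called higher in both genotypes, with each CG in capitals. Eed lies at chr7:89980977-89981226 on the minus strand, Cbx7 at chr15:79932647-79932896 on the minus strand and Bmi1 at chr2:18676768-18677017 on the plus strand.
Eed: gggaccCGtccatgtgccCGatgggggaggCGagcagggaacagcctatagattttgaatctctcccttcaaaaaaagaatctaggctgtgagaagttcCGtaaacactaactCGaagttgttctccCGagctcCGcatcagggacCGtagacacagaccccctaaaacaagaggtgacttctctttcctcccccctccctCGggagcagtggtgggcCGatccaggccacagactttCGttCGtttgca
Cbx7: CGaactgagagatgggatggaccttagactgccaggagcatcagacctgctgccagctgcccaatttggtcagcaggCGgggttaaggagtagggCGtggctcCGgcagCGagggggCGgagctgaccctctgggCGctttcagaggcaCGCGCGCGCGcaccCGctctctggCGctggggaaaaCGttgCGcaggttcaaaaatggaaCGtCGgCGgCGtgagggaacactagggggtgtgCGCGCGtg
Bmi1: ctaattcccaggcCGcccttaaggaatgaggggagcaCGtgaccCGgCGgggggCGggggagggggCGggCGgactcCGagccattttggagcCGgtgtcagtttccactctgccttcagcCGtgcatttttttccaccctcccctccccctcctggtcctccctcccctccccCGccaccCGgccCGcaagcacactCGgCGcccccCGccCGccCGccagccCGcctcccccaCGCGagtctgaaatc

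These stretches held 12 CG dinucleotides for Eed, 23 for Cbx7 and 21 for Bmi1. CG-rich promoters were thus found at subunits called lower and at a subunit called higher.

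E2F factors, which drive genes of the dividing cell, are known to bind motifs such as TTTCCCGC, TTTGGCGC, TTTCGCGC and TTTGCCGC. These letters were searched on both strands of each window and were found in 2.26% of all promoters. Among the subunits they were found in Suz12 and Ezh2. Windows of 30 bases around the match, with the motif in capitals, lie at chr11:79992876-79992905 on the plus strand for Suz12 and at chr6:47595009-47595038 on the minus strand for Ezh2.
Suz12: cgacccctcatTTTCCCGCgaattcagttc
Ezh2: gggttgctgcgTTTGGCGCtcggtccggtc

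The 2 genes that hold the motif differed in their response, with Suz12 at log2 changes of −0.95 in WT and −1.56 in Cripto KO and Ezh2 at −0.51 and −0.58. A match of letters is no evidence of binding.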

How the data were processed

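RNA-seq of 4 cultures (mouse ESCs, WT or Cripto KO, in serum/LIF or F/A, with 1 library each) was analysed. The authors used TopHat2 2.0.13 for alignment to mm9 (NCBIM37) and HTSeq 0.6.1p1 with Ensembl 67 for counting, and deposited a raw count for 37620 genes. They also deposited a signal made from these counts, full-quantile-normalized with preprocessCore 1.28.0, for the 15462 genes that passed the 1 cpm filter of NOISeq 2.8.0. Depth was 15230856 to 17315442 counts a library.

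Log2 changes were computed here from the normalized values with 0 replaced by 0.5, and a fold of at least 2 was called. Intervals (95%) came from ratios of raw counts over library totals, after halving Cripto KO F/A. The detection limit was 3 counts a library, or 6 in Cripto KO F/A. Positions, lengths and names were taken from GENCODE for NCBIM37 (Ensembl 65), which named 98.9% of genes. Python 3.11.15 (numpy 2.4.6, scipy 1.17.1, pandas 2.3.3) was used, and the code was tested on simulated data. Besides the 9 subunits, the genes named by rule were other Polycomb genes past 2-fold with at least 200 counts in a library, the largest changes among Polycomb targets, and the 3 nearest profiles of each of the 2 subunits with the widest range. Any other Polycomb gene named missed one of these limits. It was chosen after its values were seen or met the rule for flagged results. One gene of the lists is not reported here and was left out of their counts. The members and lists were chosen with earlier results of these data known. Alternatives were library totals, TMM factors (edgeR 4.0.16), DESeq2 1.42.0 size factors, 5 added to values, other filters, a 1.5-fold threshold, halved counts before normalization, and subtraction of a running median over transcript length. The version with the longest transcript and the 1.5-fold threshold for the difference were chosen after seeing the data. The authors' NOISeq probabilities, which rest on simulated replicates, were not used.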

Additional observations from a re-analysis of the deposited data

Results flagged for a closer look

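With 1 library a condition, a gene was listed here where it had at least 200 raw counts in a library and moved in opposite directions in the groups compared, with both counting intervals clear of 1. None of these differences was tested between cultures.

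By this rule 4 of the 9 subunits were lower in Cripto KO than in WT in one culture and higher in the other, and Ezh2, at −0.03 in F/A and 0.04 in serum/LIF, was left out because its serum/LIF interval included 1. The rule was run on the Polycomb genes only, so no share of all genes can be set beside this count. Across genes, Cripto KO against WT fell with longest transcript length in F/A (Spearman rho −0.53) and rose with it in serum/LIF (0.24). The part of length in these opposite directions was not tested. On the log2 scale of normalized values, Jarid2 was at −0.79 in F/A and 0.46 in serum/LIF, Cbx7 at −0.70 and 0.14, Suz12 at −0.57 and 0.04, and Cbx2 at 0.27 and −0.18. Suz12 met the rule only at its edge, since its serum/LIF interval was 1 to 1.09 after rounding.

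Among the other Polycomb genes, the log2 difference of Cripto KO from WT in F/A and then in serum/LIF was −1.09 and 0.39 for Asxl2, −0.80 and 0.35 for Phc3, −0.55 and 0.14 for Kdm6a, −0.36 and 0.10 for Mtf2, −0.24 and 0.13 for Rybp, and −0.19 and 0.20 for Pcgf3. It was positive in F/A and negative in serum/LIF for Kdm2b, at 0.34 and −0.23, and Rbbp7, at 0.15 and −0.12. From serum/LIF to F/A, Phc3 changed by 0.52 in WT and −0.62 in Cripto KO, and Scml2 by −0.44 in WT and 1.07 in Cripto KO. These genes share the 4 libraries and the trend with transcript length given above.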

How the results depend on the processing

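No paired analysis was possible because each condition had 1 library without a replicate number, and for the same reason no replicate could be left out. No subunit called at 2-fold changed direction under any alternative run. Of 320 values of the subunits' log2 changes, 283 moved by less than their counting error and 37 by more, and of 63 values of the difference between transitions 57 moved by less and 6 by more. The 320 include values under the mean-count filter, which cannot move by construction. They also include values without a filter, which for these genes repeat those scaled by library totals. The 283 therefore overstate how many independent checks left the values in place. Cbx8, exactly at 2-fold in Cripto KO, was under it in 6 alternatives (log2 change 0.85 to 0.99). With a 1.5-fold threshold, the subunits called were 7 in place of 3 in the WT transition and 2 in place of 0 between genotypes in F/A, the other Polycomb genes 28 in place of 17 in the Cripto KO transition and 6 in place of 1 in F/A, the target genes 18 in place of 11 in F/A, and the subunits with a difference of transitions 3 in place of 1, where 26.2% to 62.8% of all genes passed 1.5-fold. After subtraction of the running median over the longest transcript, 0 subunits kept a 2-fold difference of transitions. In F/A, 0 other Polycomb genes were called between genotypes with either length, so Asxl2 was lost. With a mean of at least 50 counts, 1 other Polycomb gene in place of 2 was called in serum/LIF. With no filter, 18 target genes were called in F/A and 15 in place of 8 in serum/LIF, where adding 5 to each value left 2. The cause of these shifts was not tested, other than the lower threshold calling more by construction. Cbx8 had at most 38 counts in any library, and its intervals are the widest among the subunits.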
